A study of Mus musculus with 28 samples.

Results

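The question here is whether an antibody against CD3 changed gene expression in gut CD4+ T cells by the same amount in mice with and without a gut flora. For each gene, the effect of the antibody (aCD3 minus isotype control) was taken in germ-free (GF) mice and in specific-pathogen-free (SPF) mice. The value reported is the GF effect minus the SPF effect on the log2(TPM + 1) scale, a difference of differences. All 28 libraries of the series entered it, chosen by the group names in the table's columns, and 12182 of 25124 genes passed the filter on low values. Both SPF groups, isotype and aCD3, had 6 libraries with females and males in equal number. GF isotype had 10 libraries, 5 of each sex, and GF aCD3 had 6, of which 1 was female (F1). In all 4 groups the cells were sorted as live CD45+ CD90.2+ TCRb+ CD4+ cells from the small intestine lamina propria (the tissue under the gut epithelium) of T-bet-ZsGreen mice, which report T-bet by fluorescence. That reporter is not part of the sort gate as given. The dose, timing and ages were not used here. Groups are called by colonisation and antibody, and replicates by sex letter and number, such as M4 or F1. The labels do not say whether each library is a separate animal, so p-values measure the spread between these libraries.

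CD3 is the signalling part of the T cell receptor complex. Antibody binding to it activates T cells without antigen, drives division, and is known to raise interleukin 10 and inhibitory receptors such as Lag3, which together mark type 1 regulatory (Tr1) cells, in the mouse small intestine. Germ-free mice have no microbes, and their gut CD4+ T cells are known to lack much of the Th17 cell population that gut bacteria induce.

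Libraries held 6765529 to 17860611 reads in genes. The 8 defining markers of the sorted cells summed to 1637 to 2219 TPM over all libraries, and 0 of the 8 passed for the difference in limma on TPM. Of the 8, 1 had an unadjusted p under 0.05 and 2 passed on recovered reads with voom. After median-of-ratios scaling, a rescaling of TPM given below, 1 passed with a difference below 0. The 6 GF aCD3 libraries did not lie together. Each library was placed on the scale of the SPF response by the slope of its deviation from its own isotype mean on the SPF aCD3 effect across genes, with the library itself left out of the means it was compared with. A slope of 0 means no shift along that effect and a slope of 1 a shift of its full size. SPF aCD3 libraries lay between 0.926 and 1.01, SPF isotype libraries between -0.0011 and 0.208, and GF isotype libraries between -0.131 and 0.0921. Of the GF aCD3 libraries, M1 lay at 0.728, M2 at 0.785 and M5 at 0.827, whereas M3 lay at 0.0320, M4 at -0.0359 and F1 at -0.0424. The first 3 were thus below every SPF aCD3 library and the other 3 were within the range of GF isotype. Whether M3, M4 and F1 were dosed as labelled cannot be seen from these files. They were kept in their labelled group, so every GF aCD3 median and fitted GF effect given here rests on all 6 libraries. Histone genes, which the cell expresses while it copies its DNA, took 23.8 to 26.8% of summed TPM in SPF aCD3, 3.79 to 9.24% in GF isotype and 5.39 to 26% in GF aCD3. Sample numbers in the column names put the GF libraries in a lower-numbered set (6 isotype, and aCD3 M1, M2 and M3) and a higher-numbered set (4 isotype, and aCD3 M4, M5 and F1), both apart from all SPF libraries. Colonisation and sample set therefore cannot be told apart, and each GF set holds aCD3 libraries at both ends of the scale.

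**Figure D1:**
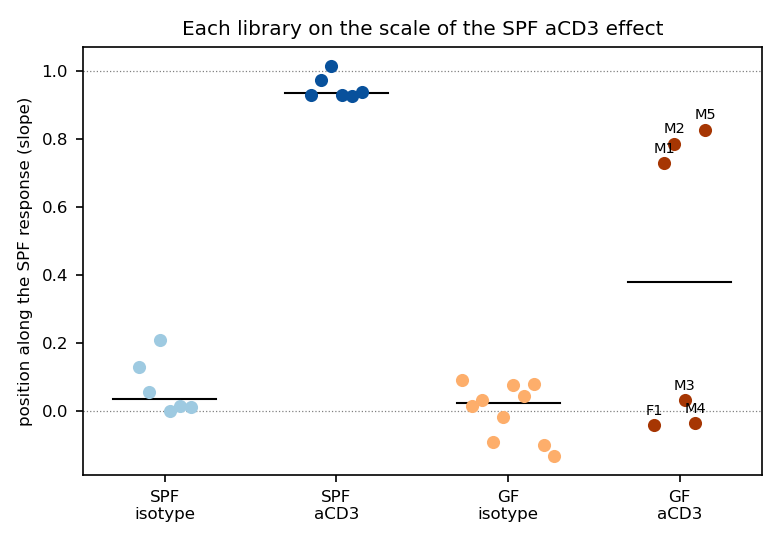
Position of each of the 28 libraries along the SPF aCD3 response (vertical axis, a slope without unit), by group; dots are libraries, black lines group medians, and dotted lines mark slopes of 0 (no shift) and 1 (the full SPF effect). The 6 GF aCD3 libraries are named and lie at 0.728 to 0.827 (M1, M2 and M5) or at -0.0424 to 0.0320 (M3, M4 and F1).

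The difference passed a Benjamini-Hochberg adjusted p of 0.05 in limma for 424 of the 12182 genes (3.48%). It was above 0 for 297 of them (2.44%) and below 0 for 127 (1.04%). A difference above 0 here went with a fall in SPF and a difference below 0 with a rise in SPF, for all 424 genes. The median SPF effect of the 297 genes was -1.19 on the log2 scale, against -0.27 in GF. The median of the 127 genes was 1.25 in SPF and 0.26 in GF. The fitted GF effect had the same sign and a smaller size for 365 of the 424 genes and the opposite sign for 59, and none had the same sign and a larger size. Over all genes tested these counts were 9104, 1788 and 1290 of 12182. The difference contains the SPF effect itself, so these counts describe the called genes and are no separate support. The aCD3 effect on its own passed for 64.8% of genes in SPF and 7.08% in GF.

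**Figure D2:**
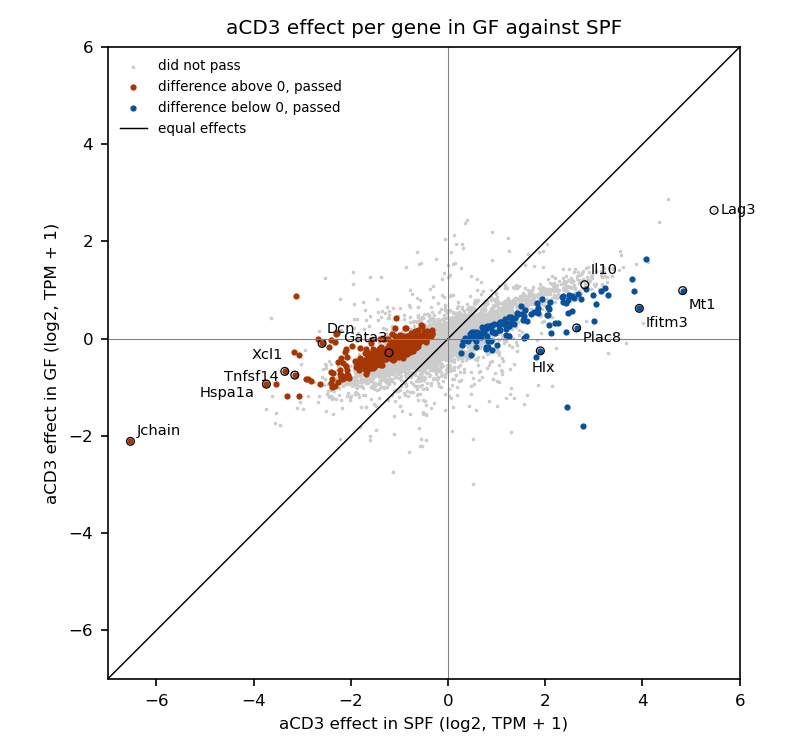
Fitted aCD3 effect of each of 12182 genes in GF (vertical axis) against SPF (horizontal axis), both in log2 of TPM + 1; coloured dots passed for the difference and the diagonal marks equal effects. The 424 coloured genes lie nearer the horizontal zero line than the diagonal: 297 with a difference above 0 on the left and 127 with a difference below 0 on the right.

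The count depended on the scaling and on single libraries. TPM is a share of each library, and the median difference over all genes was 0.20 in TPM against -0.01 after median-of-ratios scaling. That scaling gave 1423 genes (11.7%), of which 629 were above 0 (5.16%) and 794 below (6.52%), so that the share above 0 moved from 70.0% to 44.2%. Counts of list members are read against these shares, 2.44% above and 1.04% below 0 in TPM and 5.16% and 6.52% after that scaling. For most lists, counts are given under both scalings where they differ. Of the 424 genes, 373 passed under it too and 0 changed sign. Without GF aCD3 F1 the count was 32, without M4 97 and without M3 137, whereas without M1, M2 or M5 it was 2044, 2491 and 3187. Without SPF isotype F3, the library with the most ribosomal RNA (Rn45s at 22.9% of summed TPM), it was 2070. In the other fits without 1 library it ran from 108 to 425. With the GF libraries of the lower-numbered set alone the count was 98, with the higher-numbered set alone 9, and with a term for the set 557. In the males alone it was 1. A set of 32 genes passed in all 28 fits without 1 library (0.263%). These include Mt1, Ifitm1, Ifi204, Plac8, Hlx, Xcl1, Tnfsf14, Bcl6, Dnajb1, Cenpa, Dcn, Col1a1 and Mgp. The set is the same as the 32 genes of the fit without GF aCD3 F1. Ifi204, Dcn, Col1a1 and Mgp reached the filter on low values only through 1 group. For these 4 genes, passing in every fit is a description and no added support.

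A gene can differ because the aCD3 groups differ or because the isotype groups do. The larger gap lay between the aCD3 groups for 355 of the 424 genes and between the isotype groups for 69. These gaps are between plain group means without the sex term, so a pair of them does not add up exactly to the fitted difference. All 6 GF aCD3 libraries lay outside the SPF aCD3 range on 1 side for 189 of the 424 genes, against 13.0% of all genes tested. Since the difference uses these libraries, nothing is read from that excess. The filter was reached only through 1 group, with too few libraries at 1 TPM outside it, by 31 of the 424 genes (7.31%) and by 4.67% of all genes tested. Such a gene was tested only because that group is high, and its call is a description. Of the genes named here this holds for Dcn, Col1a1, Bgn, Serping1, Mgp, Adamdec1 and Ncr1 through SPF isotype and for Mt3, Ifi204, Ermn, Igfbp4 and Reg3g through SPF aCD3. Most of the genes described first have the larger gap between the aCD3 groups; Il23r and Cenpa, placed with their lists, do not.

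Metallothioneins are small cysteine-rich proteins that bind zinc and copper. Mt1 (NM_013602, chr8:94179089-94180327) had the lowest difference of the genes named by rule. Mt1 was at 0, 2.72 and 8.39 TPM (lowest, median and highest library) in SPF isotype, 59.7, 93.8 and 101 in SPF aCD3, 1.46, 3.85 and 31.2 in GF isotype and 2.46, 12.4 and 17.7 in GF aCD3. In GF aCD3 it was at 13 TPM in M1, 17.7 in M2, 11.7 in M3, 2.46 in M4, 14.6 in M5 and 5.17 in F1. All 6 lay below the lowest SPF aCD3 library and overlapped the GF isotype range. The aCD3 effect was 4.83 in SPF and 0.99 in GF, a difference of -3.84 ± 0.75 (SE; limma adjusted p = 0.0116). It passed in 28 of 28 fits without 1 library, at an adjusted p of up to 0.0481.

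Mt2 (NM_008630, chr8:94172618-94173567), its neighbour, had a similar pattern of levels. Mt2 was at 0, 1.17 and 3.43 TPM (lowest, median and highest library) in SPF isotype, 20.7, 37.6 and 53.3 in SPF aCD3, 0, 0 and 21 in GF isotype and 1.35, 5.57 and 11.3 in GF aCD3. All 6 GF aCD3 libraries again lay below SPF aCD3. Its aCD3 effect was 4.11 in SPF and 1.57 in GF, and the difference of -2.54 ± 0.90 (SE; limma adjusted p = 0.0746) did not pass, with a 95% interval of -4.38 to -0.70. It passed after median-of-ratios scaling (adjusted p = 0.0424), with a pseudocount of 5 (0.0241) and without GF aCD3 M1, M2 or M5 (0.0458, 0.0385 and 0.0304). Mt3, the brain-enriched member, was low in every library. Mt3 ran from 0 to 0.703 TPM in SPF isotype, 2.13 to 8.31 in SPF aCD3, 0 to 2.02 in GF isotype and 0 to 3.47 in GF aCD3. It passed with a difference of -1.94 ± 0.53 (SE; limma adjusted p = 0.0434). Of 20 metallothionein and zinc transporter genes tested, 0 passed above 0 and 2 below, Mt1 and Mt3 (0 above and 3 below after median-of-ratios scaling). The list median was 0.079, or -0.13 after median-of-ratios scaling, and no zinc transporter passed in TPM.

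Metallothionein genes are known to be switched on by the zinc-sensing factor MTF1 through metal response elements. The 250 bases before the RefSeq start of Mt1 and Mt2 are shown because these are the members with the widest gap between the aCD3 groups. Sequences are from RefSeq (GRCm38.p6), plus strand, 5′ to 3′, and capitals mark the core TGCACNC or TGCGCNC on either strand.
Mt1, chr8:94178839-94179088: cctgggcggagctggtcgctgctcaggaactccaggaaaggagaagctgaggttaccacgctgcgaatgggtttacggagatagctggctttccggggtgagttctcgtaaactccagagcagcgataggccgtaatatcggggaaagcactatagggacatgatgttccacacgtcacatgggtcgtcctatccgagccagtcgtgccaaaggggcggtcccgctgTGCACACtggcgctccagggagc
Mt2, chr8:94172368-94172617: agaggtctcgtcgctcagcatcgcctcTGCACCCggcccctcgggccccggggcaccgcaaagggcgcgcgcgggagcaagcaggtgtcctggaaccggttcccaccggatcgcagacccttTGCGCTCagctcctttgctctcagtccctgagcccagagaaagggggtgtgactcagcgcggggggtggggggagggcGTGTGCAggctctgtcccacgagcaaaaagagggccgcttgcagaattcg
In the window of 250 bases before to 50 after the start, Mt1 had 3 matches, Mt2 had 4 and Mt3 had 1. Of 32851 such windows, 25.7% had at least 1 match and 0.518% had 4 or more. A match is a description of letters, not a measured site.

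The Ifitm family, membrane proteins that block virus entry and are induced by interferon, stood at the same end. Ifitm3 (NM_025378, chr7:141009590-141010744) rose under aCD3 in SPF. Ifitm3 was at 7.86, 14.9 and 18 TPM (lowest, median and highest library) in SPF isotype, 151, 217 and 300.1 in SPF aCD3, 5.8, 15.7 and 29 in GF isotype and 3.44, 28.4 and 87.9 in GF aCD3. The GF aCD3 values were 45.8 TPM in M1, 61.8 in M2, 3.44 in M3, 7.92 in M4, 87.9 in M5 and 11.1 in F1. All 6 were below the lowest SPF aCD3 library, and 3 of them (M1, M2 and M5) were above every GF isotype library. Its effect was 3.94 in SPF and 0.62 in GF, with a difference of -3.31 ± 0.71 (SE; limma adjusted p = 0.0202), which was 0.0709 without GF aCD3 F1. Ifitm1 ran lower. Ifitm1 was at 0, 0 and 1.24 TPM (lowest, median and highest library) in SPF isotype, 2.95, 9.12 and 21.4 in SPF aCD3, 0, 0.167 and 1.78 in GF isotype and 0, 1.25 and 3.81 in GF aCD3. The difference of -2.64 ± 0.50 (SE; limma adjusted p = 0.00922) held in 28 of 28 fits without 1 library.

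Ifitm2, which lies beside them on chromosome 7, showed a smaller gap. Ifitm2 ran from 8.7 to 17.4 TPM in SPF isotype, 29.1 to 50.1 in SPF aCD3, 6.43 to 19.8 in GF isotype and 11 to 82.1 in GF aCD3. Only GF aCD3 M5 rose above the lowest SPF aCD3 library. Its difference of -0.90 ± 0.46 (SE; limma adjusted p = 0.173) did not pass, but was -1.26 without M5 (adjusted p = 0.0159). Of the 6 Ifitm genes tested, 2 passed below 0 and 0 above, and the list median was -1.03 against 0.20 for all genes. These genes lie close together and are similar in sequence, so how the counting treated reads matching more than 1 of them could move their values.

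Interferon response elements carry repeats of GAAA, searched here as 2 copies of GAAA with any 2 bases between them, on either strand, in the windows of 300 bases at RefSeq starts. The matching stretches of Ifitm3 and Ifitm2 are shown because they are the matches found in this family's named members. Both are from RefSeq (GRCm38.p6), minus strand, 5′ to 3′, with matches in capitals.
Ifitm3, chr7:141010716-141010742: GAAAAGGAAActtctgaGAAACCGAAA
Ifitm2, chr7:140955998-140956007: GAAAAGGAAA
Ifitm3 had 2 matches, Ifitm2 had 1 and Ifitm1, which also passed, had 0. Over all windows 3.44% had a match and 0.225% had 2 or more.

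Among 35 interferon-stimulated genes tested, 2 passed below 0 and 0 above, and 30 had a fitted difference below 0 (30.7% of all genes). The list median was -0.75, with median effects of 1.04 in SPF and 0.23 in GF. After median-of-ratios scaling 11 passed below 0 (6.52% of all genes). Ifi204, a DNA sensor of the interferon-inducible p200 family, was at 3.94, 7.57 and 12 TPM in SPF aCD3 and 0.404, 1.28 and 3.37 in GF aCD3. Both isotype groups stayed at 1.31 TPM or less. None of the 6 GF aCD3 libraries reached the SPF aCD3 range, and the difference was -1.99 ± 0.33 (SE; limma adjusted p = 0.00265). Phf11b, a PHD finger protein gene, passed with -1.01 ± 0.27 (SE; limma adjusted p = 0.0412). Both belong to families of near-identical copies, so their own levels are uncertain. Samhd1, a dNTP hydrolase that restricts viruses and was not on that list, passed in 28 of 28 fits with a difference of -0.85 ± 0.15 (SE; limma adjusted p = 0.00404). Of 15 guanylate binding proteins and immunity-related GTPases, 1 passed above 0 and 0 below (1 above and 2 below after scaling). That gene was Tgtp1, with a difference of 0.94 ± 0.26 (SE; limma adjusted p = 0.0478), and it has a near-identical copy.

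Several further genes that aCD3 raised in SPF stayed near isotype levels in GF. Plac8, a small cysteine-rich protein of activated lymphocytes, is a clear case. Plac8 was at 16.3, 19.6 and 25 TPM (lowest, median and highest library) in SPF isotype, 69.3, 138 and 173 in SPF aCD3, 14.9, 37.7 and 88.5 in GF isotype and 22.7, 41.6 and 58.2 in GF aCD3. All 6 GF aCD3 libraries were below the lowest SPF aCD3 library and inside the range of GF isotype. Its effect was 2.65 in SPF and 0.22 in GF, a difference of -2.42 ± 0.42 (SE; limma adjusted p = 0.00404). Hlx, a homeobox factor that acts with T-bet in Th1 cells, went further. Hlx was at 0.216, 1.02 and 1.52 TPM (lowest, median and highest library) in SPF isotype, 3.78, 6.3 and 8.3 in SPF aCD3, 0, 0.51 and 2.09 in GF isotype and 0, 0.343 and 1.68 in GF aCD3. None of the GF aCD3 libraries reached the SPF aCD3 range or left that of GF isotype. The effect was 1.9 in SPF and -0.25 in GF, and the difference was -2.15 ± 0.35 (SE; limma adjusted p = 0.0026). Both passed in 28 of 28 fits without 1 library.

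Perp, a p53-induced membrane protein, and Ermn, a cytoskeletal protein, were also at this end. Perp was at 25.4, 27.5 and 35.2 TPM in SPF aCD3, and the GF aCD3 values were 11.7 TPM in M1, 22 in M2, 2.86 in M3, 2.54 in M4, 25.1 in M5 and 1.44 in F1. M1, M2 and M5 lay above every GF isotype library and below every SPF aCD3 library. Its difference was -2.56 ± 0.55 (SE; limma adjusted p = 0.0202). Ermn reached 5.21, 8.17 and 20.1 TPM in SPF aCD3 against 0, 0.587 and 2.84 in GF aCD3. It differed by -2.33 ± 0.42 (SE; limma adjusted p = 0.00468). Glipr2 and Gnpda1 had smaller but less variable differences. Glipr2 was at 16.1 to 23.3 TPM in SPF aCD3 and at 8.89 to 13.6 in GF aCD3, and its difference was -0.89 ± 0.14 (SE; limma adjusted p = 0.00208). Gnpda1, a glucosamine-6-phosphate deaminase, differed by -0.95 ± 0.15 (SE; limma adjusted p = 0.00178).

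Of the 24 genes of IL-10 and co-inhibitory receptors tested, 2 passed above 0 and 1 below (2.44 and 1.04% of all genes), with a list median of -0.31. After median-of-ratios scaling 2 above and 6 below passed (5.16 and 6.52% of all genes), with a median of -0.57. Median effects were 0.51 in SPF and 0.15 in GF. The gene below 0 was Havcr2, which encodes the inhibitory receptor TIM-3. Havcr2 was at 0.504, 0.828 and 1.43 TPM (lowest, median and highest library) in SPF isotype, 27.6, 30.2 and 36.5 in SPF aCD3, 0.392, 0.75 and 1.18 in GF isotype and 0.462, 5.97 and 30.8 in GF aCD3. In GF aCD3 it was at 10.6 TPM in M1, 17.2 in M2, 1.37 in M3, 0.521 in M4, 30.8 in M5 and 0.462 in F1. M5 lay within the SPF aCD3 range, M1 and M2 were between the ranges of both antibody groups, M4 and F1 were in the range of GF isotype, and M3 was above GF isotype but inside the range of SPF isotype. The effect was 4.08 in SPF and 1.64 in GF, and the difference was -2.43 ± 0.69 (SE; limma adjusted p = 0.048). It passed in only 4 of 28 fits without 1 library.

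Lag3, an inhibitory receptor that binds MHC class II, and Il10 itself did not pass. Lag3 was at 9.5, 12.9 and 18.5 TPM (lowest, median and highest library) in SPF isotype, 505, 613 and 825 in SPF aCD3, 5.41, 11 and 18.5 in GF isotype and 9.59, 235 and 527 in GF aCD3. The GF aCD3 values were 498 TPM in M1, 452 in M2, 17 in M3, 12.3 in M4, 527 in M5 and 9.59 in F1. M1, M2 and M5 were close to SPF aCD3, and M3, M4 and F1 were inside the range of GF isotype. The fitted Lag3 effect was 5.47 in SPF and 2.64 in GF, with a difference of -2.83 ± 1.00 (SE; limma adjusted p = 0.0752) and a 95% interval of -4.90 to -0.77. Il10 was at 556, 660.3 and 766 TPM in SPF aCD3. Its GF aCD3 values were 403 TPM in M1, 588 in M2, 109 in M3, 141 in M4, 630.0 in M5 and 93.5 in F1. The same 3 libraries were highest, and the effect was 2.81 in SPF and 1.11 in GF, a difference of -1.70 ± 0.53 (SE; limma adjusted p = 0.0578) with an interval of -2.78 to -0.62. Without GF aCD3 F1 the adjusted p was 0.219 for Lag3 and 0.17 for Il10. Leaving out M1, M2 or M5 instead gave 0.0318, 0.0265 and 0.0175 for Lag3 and 0.0328, 0.02 and 0.0122 for Il10. Il10 also passed after median-of-ratios scaling (0.0412), with voom (0.0311) and without SPF isotype F3 (0.0361), and Lag3 with weights per group (0.0459).

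The other 2 genes of this list that passed are Cd226, the activating receptor DNAM-1, and Cd160, a receptor that binds HVEM. Both were lowered by aCD3 in SPF. Cd226 was at 45.9, 56.6 and 67.9 TPM (lowest, median and highest library) in SPF isotype, 6.41, 7.22 and 7.92 in SPF aCD3, 61.2, 69.7 and 79.8 in GF isotype and 13.6, 41.7 and 85.5 in GF aCD3. The 6 GF aCD3 libraries lay above SPF aCD3, from 13.6 to 85.5 TPM, and the difference was 1.95 ± 0.40 (SE; limma adjusted p = 0.0162). Cd160 was at 15.4 to 20.0 TPM in SPF aCD3 and at 22.1 to 63.2 in GF aCD3. Its difference was 0.95 ± 0.25 (SE; limma adjusted p = 0.0377).

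**Figure D3:**
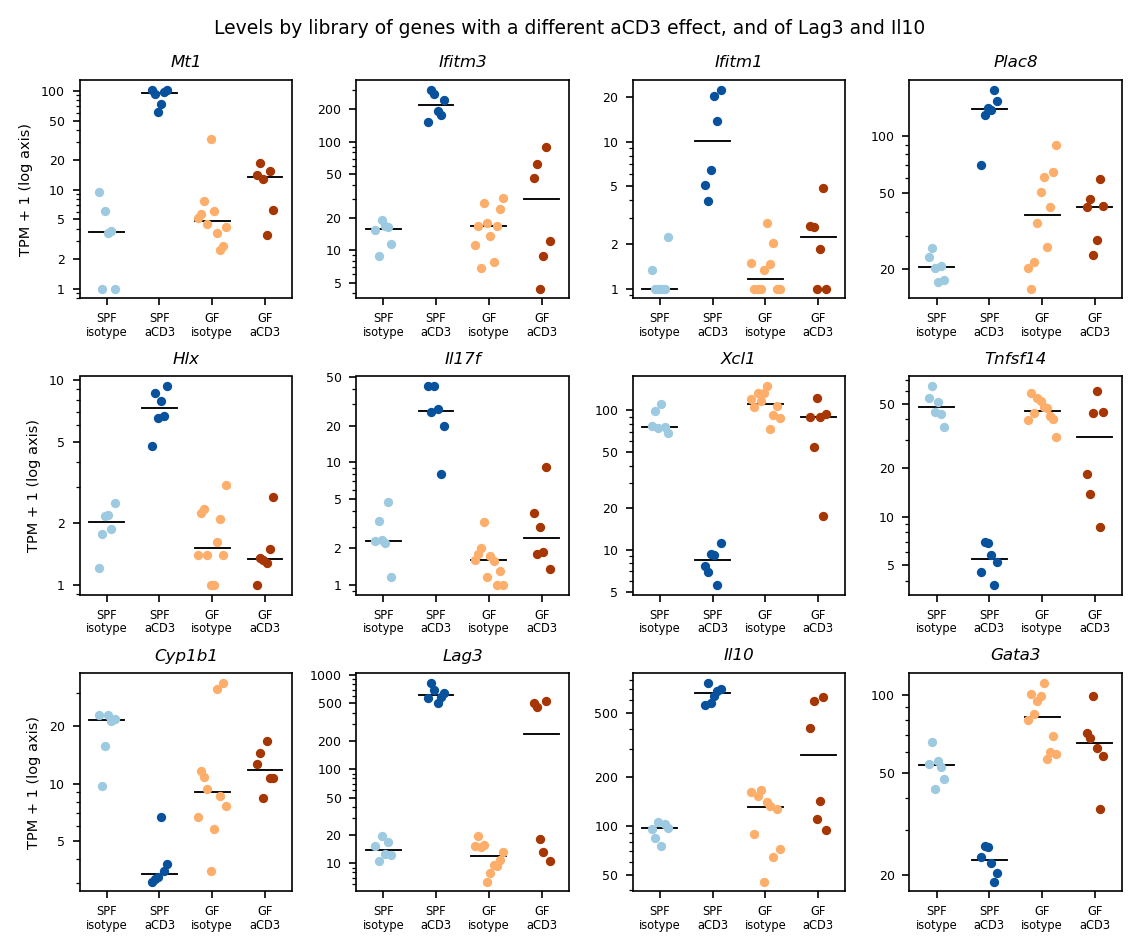
TPM + 1 on a log axis in each library (dots; black lines are group medians) for Mt1, Ifitm3, Ifitm1, Plac8, Hlx, Il17f, Xcl1, Tnfsf14, Cyp1b1, Lag3, Il10 and Gata3, in the 4 groups. In the first 9 genes and Gata3 the SPF aCD3 median lies apart from the medians of the other 3 groups; for Lag3 and Il10 the GF aCD3 libraries M1, M2 and M5 lie near SPF aCD3 and the other 3 near GF isotype.

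Genes that aCD3 lowered in SPF and less so in GF included signalling ligands. Xcl1, a chemokine that draws cross-presenting dendritic cells, is an example. Xcl1 was at 68.1, 75.4 and 109 TPM (lowest, median and highest library) in SPF isotype, 4.59, 7.38 and 10.2 in SPF aCD3, 72.9, 110.3 and 147 in GF isotype and 16.5, 88.3 and 122 in GF aCD3. In GF aCD3 it was at 87.8 TPM in M1, 53.1 in M2, 122 in M3, 88.9 in M4, 16.5 in M5 and 93.2 in F1. All 6 lay above the highest SPF aCD3 library, with M5 the nearest to it. Its effect was -3.36 in SPF and -0.67 in GF, a difference of 2.68 ± 0.41 (SE; limma adjusted p = 0.00176). Tnfsf14, the TNF family ligand LIGHT, was likewise lowest in SPF aCD3. Tnfsf14 was at 34.8, 46.8 and 63 TPM (lowest, median and highest library) in SPF isotype, 2.77, 4.5 and 5.92 in SPF aCD3, 30.2, 44.3 and 57.2 in GF isotype and 7.66, 30.0 and 58.5 in GF aCD3. The difference was 2.40 ± 0.42 (SE; limma adjusted p = 0.00444). Both passed in 28 of 28 fits without 1 library. Of 10 chemokine genes tested, Xcl1 passed above 0 and Cxcl3 below, and of 25 cytokine and TNF ligand genes Tnfsf14 passed above 0 and Il17f below. Under median-of-ratios scaling these counts were 1 above and 2 below for chemokines and 3 above and 6 below for cytokines and ligands.

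Cyp1b1, a monooxygenase whose gene is a known target of the aryl hydrocarbon receptor, also had its lowest median in SPF aCD3. Cyp1b1 was at 8.76, 20.6 and 21.9 TPM (lowest, median and highest library) in SPF isotype, 2.05, 2.35 and 5.65 in SPF aCD3, 2.45, 7.99 and 32.8 in GF isotype and 7.43, 10.7 and 15.7 in GF aCD3. Each of the 6 GF aCD3 libraries was above SPF aCD3 and inside the range of GF isotype. The difference was 2.39 ± 0.51 (SE; limma adjusted p = 0.0202). Bcl6, the transcriptional repressor of follicular helper T cells, was at 21.9 to 29.7 TPM in SPF isotype, 11.4 to 17.3 in SPF aCD3 and 15.3 to 38.5 in GF aCD3. It differed by 1.07 ± 0.21 (SE; limma adjusted p = 0.00958) and passed in 28 of 28 fits. Of 24 Bcl2 family and survival genes, 2 passed above 0 and 0 below (2.44 and 1.04% of all genes), but 4 above and 3 below after median-of-ratios scaling. They were the anti-apoptotic Bcl2, with 1.40 ± 0.39 (SE; limma adjusted p = 0.0478), and the pro-apoptotic Pmaip1, with 1.06 ± 0.30 (SE; limma adjusted p = 0.048). Of 31 genes of the CD3 chains and proximal receptor signalling, 1 passed above 0 and 0 below (3 above and 0 below after scaling), the kinase gene Fyn, with 0.82 ± 0.23 (SE; limma adjusted p = 0.0493). The gut homing and residency list had 2 of 21 above 0 and 0 below, but 2 above and 3 below after scaling. Its median difference was above 0 in both, at 0.44 in TPM and 0.21 after scaling. The genes that passed in TPM were Xcl1 and Rgs1, a regulator of chemokine receptor signalling, with 0.98 ± 0.25 (SE; limma adjusted p = 0.0335).

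Among lineage factors, Gata3, the master regulator of type 2 helper cells, passed. Gata3 was at 42.3, 52.5 and 64.8 TPM (lowest, median and highest library) in SPF isotype, 17.9, 22 and 25 in SPF aCD3, 55.6, 81.4 and 110.4 in GF isotype and 35.3, 64.4 and 98.2 in GF aCD3. The 6 GF aCD3 libraries lay above the highest SPF aCD3 library, the nearest being M5 at 35.3 TPM. The effect was -1.21 in SPF and -0.29 in GF, and the difference of 0.92 ± 0.25 (SE; limma adjusted p = 0.0444) had an adjusted p of 0.0513 after median-of-ratios scaling. The call held in 7 of 28 fits without 1 library (adjusted p of 0.0887 without GF aCD3 F1), and the adjusted p ran from 0.00159 to 0.298 over the other settings tried. It was the only gene of 12 in the type 2 list to pass in TPM, and 0 passed after median-of-ratios scaling. Tbx21, which encodes T-bet, did not pass. It ran from 39 to 55.8 TPM in SPF aCD3 and from 49.4 to 95.1 in GF aCD3, with a difference of 0.089 ± 0.20 (SE; limma adjusted p = 0.782), an interval of -0.33 to 0.51 and a sign that changed with the scaling (-0.16 after median-of-ratios). Ifng, the Th1 cytokine interferon gamma, was at 247 to 358 TPM in SPF aCD3 and 180.1 to 255 in GF aCD3. Its difference was -0.52 ± 0.18 (SE; limma adjusted p = 0.0699), with an interval of -0.88 to -0.15. It passed after median-of-ratios scaling, at -0.77 (adjusted p = 0.0297), with voom (0.0216), in TPM recomputed with histone genes and Rn45s left out (0.0494), and without GF aCD3 M1, M2 or M5 (0.0472, 0.0304 and 0.0282). Foxp3, the factor of regulatory T cells, had a difference of -0.072 ± 0.47 (SE; limma adjusted p = 0.93), with an interval of -1.04 to 0.89. In the Th1 list 1 of 18 genes passed below 0 (Hlx) and 0 above (0 above and 3 below after median-of-ratios scaling). In the regulatory T cell list 0 of 14 passed in limma on TPM (3 had an unadjusted p under 0.05). After median-of-ratios scaling 0 of them passed above 0 and 2 below, and 2 passed with voom. The list median was -0.28 in TPM and -0.51 after that scaling.

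The Th17 list had 2 of 18 genes above 0 and 1 below, with a median of -0.072. The gene below 0 was Il17f, a cytokine of mucosal defence. Il17f was at 0.152, 1.31 and 3.78 TPM (lowest, median and highest library) in SPF isotype, 7, 25.3 and 40.7 in SPF aCD3, 0, 0.593 and 2.27 in GF isotype and 0.36, 1.42 and 8.25 in GF aCD3. Of the GF aCD3 libraries, M5 alone entered the SPF aCD3 range, and the difference was -2.39 ± 0.58 (SE; limma adjusted p = 0.0288). Its relative Il17a varied more within groups. Il17a was at 45.6, 56.5 and 76.6 TPM (lowest, median and highest library) in SPF isotype, 101, 391 and 478 in SPF aCD3, 0.732, 17.7 and 67.2 in GF isotype and 5.35, 70.6 and 83.8 in GF aCD3. All 6 GF aCD3 libraries lay below SPF aCD3, yet the difference was -1.19 ± 1.02 (SE; limma adjusted p = 0.416), with an interval of -3.29 to 0.91. The plain means of the isotype groups differed too, by -1.9 (GF minus SPF, log2), and the aCD3 groups by -2.90. Rora and Il23r, a Th17 transcription factor and the interleukin 23 receptor, passed above 0. Rora differed by 1.39 ± 0.36 (SE; limma adjusted p = 0.0364). Il23r was at 8.45 to 13.8 TPM in SPF isotype, 1.88 to 5.78 in SPF aCD3, 1.08 to 5.48 in GF isotype and 1.36 to 6.04 in GF aCD3. Its difference of 1.29 ± 0.37 (SE; limma adjusted p = 0.0499) came with an SPF effect of -1.30 and a low level in both GF groups.

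Cxcl3, a neutrophil-attracting chemokine, was listed at 0 TPM in all 10 GF isotype libraries. It was at 0, 2.27 and 6.3 TPM in SPF isotype, 17.3, 28.6 and 37.6 in SPF aCD3 and 0, 1.06 and 3.02 in GF aCD3. The difference was -2.19 ± 0.51 (SE; limma adjusted p = 0.0251); against a group at 0 its size depends on the added 1 TPM. In the cytotoxic list 2 of 19 genes passed above 0 and 1 below (2 above and 4 below after median-of-ratios scaling). The protease gene Ctsw differed by 1.07 ± 0.30 (SE; limma adjusted p = 0.0478), the receptor gene Klrk1 (NKG2D) by 1.37 ± 0.37 (SE; limma adjusted p = 0.0434), and the protease inhibitor gene Serpinb6b by -1.19 ± 0.28 (SE; limma adjusted p = 0.0269). Igfbp4, a growth factor binding protein found in naive T cells, was at 3.29, 6.34 and 22 TPM in SPF aCD3 and 0.077, 0.358 and 2.06 in GF aCD3, with a difference of -1.99 ± 0.41 (SE; limma adjusted p = 0.0179).

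Genes of cell division mostly had fitted differences below 0, but few passed one by one. Of 67 replication-dependent histone genes tested, 9 passed below 0 and 0 above, and 66 had a fitted difference below 0, as did 30.7% of all genes tested (50.9% after median-of-ratios scaling). Members of a list are not independent of each other, and the lists were not tested as sets. Median effects were 2.58 in SPF and 1.05 in GF, and the median difference was -1.51 (28 passed below 0 after median-of-ratios scaling). Hist1h4b shows the spread. Hist1h4b was at 184, 258 and 311 TPM (lowest, median and highest library) in SPF isotype, 1505, 2344 and 2665 in SPF aCD3, 229, 372 and 579 in GF isotype and 338, 985 and 2543 in GF aCD3. In GF aCD3 it was at 1464 TPM in M1, 1469 in M2, 338 in M3, 505 in M4, 2543 in M5 and 374 in F1. M5 was within the SPF aCD3 range, M1 and M2 were just under it, and M3, M4 and F1 were in the GF isotype range. The difference was -2.16 ± 0.48 (SE; limma adjusted p = 0.0218). Hist1h4h differed by -2.08 ± 0.52 (SE; limma adjusted p = 0.0336) and Hist2h2bb by -1.75 ± 0.47 (SE; limma adjusted p = 0.0412). Histone genes are near-identical copies of each other, and their transcripts mostly lack a poly(A) tail. One label names a total RNA kit and another polyA RNA, which was not settled here.

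In the S phase list 1 of 40 genes passed below 0 and 0 above, and in the mitosis list likewise 1 of 40. Each share is 2.5%, against 1.04% of all genes passing below 0 and 3.48% in either direction, so 1 call is no result about these lists. After median-of-ratios scaling 5 and 8 of 40 passed below 0, against 6.52% of all genes. In each, 39 of 40 fitted differences were below 0. The medians were -0.86 and -1.13. Chaf1b, a subunit of the factor that loads histones on new DNA, differed by -0.88 ± 0.23 (SE; limma adjusted p = 0.0412). Cenpa, the histone variant of centromeres, was at 61 to 75.7 TPM in SPF aCD3, and its GF aCD3 values were 55.4 TPM in M1, 63.9 in M2, 49.4 in M3, 42.3 in M4, 71.3 in M5 and 29.4 in F1. Its difference of -0.99 ± 0.20 (SE; limma adjusted p = 0.0144) passed in 28 of 28 fits without 1 library. Mki67, the standard marker of dividing cells, did not pass. Mki67 was at 37.2, 51.9 and 71.7 TPM (lowest, median and highest library) in SPF isotype, 258, 307 and 335 in SPF aCD3, 32.7, 91.4 and 118 in GF isotype and 46.5, 235 and 447 in GF aCD3. Its GF aCD3 values were 368 TPM in M1, 447 in M2, 159.7 in M3, 67.6 in M4, 311 in M5 and 46.5 in F1. M1, M2 and M5 matched or exceeded the SPF aCD3 range, M3 lay between the groups, and M4 and F1 were in the GF isotype range. The difference was -1.30 ± 0.58 (SE; limma adjusted p = 0.128), with an interval of -2.49 to -0.10. It passed without GF aCD3 M2 (adjusted p = 0.0476).

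For several stress genes that passed, the level in SPF isotype was the one that stood out. Heat shock chaperones refold damaged proteins. Of 24 tested, 7 passed above 0 and 0 below (2.44 and 1.04% of all genes; 8 above and 0 below after median-of-ratios scaling), with a median of 0.52 against 0.20 for all genes. Hspa1a (NM_010479, chr17:34969359-34972156), the inducible Hsp70, led the list. Hspa1a was at 2639, 3751 and 5451 TPM (lowest, median and highest library) in SPF isotype, 158, 278 and 451 in SPF aCD3, 146, 656 and 1704 in GF isotype and 153, 343 and 732 in GF aCD3. SPF isotype was above all other libraries, and the 3 other groups overlapped. The effect was -3.73 in SPF and -0.93 in GF, a difference of 2.80 ± 0.62 (SE; limma adjusted p = 0.0218). The plain means of the isotype groups differed by -2.60 and the aCD3 groups by 0.31 (GF minus SPF, log2). Hspa1b, a near-identical copy of Hspa1a with which it may share reads, had a difference of 2.62 ± 0.60 (SE; limma adjusted p = 0.0232).

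The other 5 are helpers of Hsp70. Dnajb1 was steadiest. Dnajb1 was at 410.2, 689.9 and 934 TPM (lowest, median and highest library) in SPF isotype, 111, 130.3 and 148 in SPF aCD3, 154, 229 and 361 in GF isotype and 118, 178 and 289 in GF aCD3. Its difference of 1.78 ± 0.31 (SE; limma adjusted p = 0.00404) passed in 28 of 28 fits without 1 library. Dnajb4 differed by 1.70 ± 0.39 (SE; limma adjusted p = 0.0232), Dnaja4 by 1.53 ± 0.37 (SE; limma adjusted p = 0.0287), Dnaja1 by 1.21 ± 0.25 (SE; limma adjusted p = 0.0174) and Bag3 by 1.14 ± 0.25 (SE; limma adjusted p = 0.0218). For Dnajb4, Dnaja4 and Dnaja1 the larger gap lay between the aCD3 groups, at 1.15, 0.92 and 0.91. The heat shock element, searched on both strands as GAA, TTC and GAA (or TTC, GAA and TTC) with any 2 bases between units, was in 0.600% of all windows and in 0 of the windows of these 7 genes. That says only that these letters are not in those 300 bases.

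Immediate early genes, which switch on within minutes of stimulation or handling of cells, had 5 of 26 above 0 and 0 below (2.44 and 1.04% of all genes), with a median of 0.81 against 0.20 for all genes. After median-of-ratios scaling they had 9 above and 0 below. The 5 genes were the AP-1 subunit genes Fos, Jun and Jund, the stress factor gene Atf3 and the MAP kinase phosphatase gene Dusp1. Jun was at 1657, 2243 and 3016 TPM (lowest, median and highest library) in SPF isotype, 365, 433 and 492 in SPF aCD3, 504, 859.8 and 1344 in GF isotype and 224, 518 and 1090.1 in GF aCD3. SPF isotype lay above all other libraries, and GF aCD3 overlapped both SPF aCD3 and GF isotype. The Jun effect was -2.39 in SPF and -0.83 in GF, a difference of 1.55 ± 0.35 (SE; limma adjusted p = 0.0218). Fos ran from 2051 to 2979.5 TPM in SPF isotype, 434 to 552 in SPF aCD3, 934 to 2437 in GF isotype and 384 to 1796 in GF aCD3. It differed by 1.5 ± 0.33 (SE; limma adjusted p = 0.0218). Dusp1 differed by 1.43 ± 0.32 (SE; limma adjusted p = 0.0221), Jund by 0.96 ± 0.27 (SE; limma adjusted p = 0.048) and Atf3 by 1.66 ± 0.46 (SE; limma adjusted p = 0.0455). For Dusp1 the isotype groups were near each other, at 2926 to 3615 TPM in SPF and 2187 to 3680.1 in GF, and the aCD3 groups were at 588 to 832 and 688 to 3188. The list summed to 18952 to 23223 TPM in SPF isotype and 11136 to 21477 in GF isotype.

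Genes best known from other cell types were also among the highest differences. Dcn, the matrix proteoglycan decorin, is one. Dcn was at 1.15, 5.26 and 11.4 TPM (lowest, median and highest library) in SPF isotype, 0, 0.024 and 0.105 in SPF aCD3, 0, 0.142 and 0.526 in GF isotype and 0, 0.092 and 0.212 in GF aCD3. It was low outside SPF isotype, where every library exceeded all others. The effect was -2.59 in SPF and -0.096 in GF, a difference of 2.49 ± 0.33 (SE; limma adjusted p = 0.000532). The 6 SPF isotype libraries were the only ones at 1 TPM or more, so the gene was tested through that group alone. Col1a1, a collagen chain, differed by 2.40 ± 0.34 (SE; limma adjusted p = 0.0009), the proteoglycan gene Bgn by 2.38 ± 0.43 (SE; limma adjusted p = 0.00579) and the complement inhibitor gene Serping1 by 2.27 ± 0.37 (SE; limma adjusted p = 0.00265). Mgp, a calcification inhibitor, and Adamdec1, a metalloprotease, were listed at 0 TPM in all 6 SPF aCD3 libraries. Their levels in SPF isotype were 0.951, 7.68 and 9.44 and 3.86, 6.17 and 17.1 TPM, and their differences of 2.69 ± 0.50 (SE; limma adjusted p = 0.00734) and 2.73 ± 0.42 (SE; limma adjusted p = 0.00176) depend on the added 1 TPM. All but Col1a1, at 0.552, were at most 0.254 TPM in SPF aCD3.

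Jchain, which joins antibody chains in plasma cells, had the highest difference. Jchain was at 87.4, 171 and 259 TPM (lowest, median and highest library) in SPF isotype, 0.128, 0.716 and 1.55 in SPF aCD3, 8.29, 27.3 and 107 in GF isotype and 0.181, 9.01 and 89.3 in GF aCD3. In GF aCD3 it was at 0.181 TPM in M1, 1.06 in M2, 89.3 in M3, 25.4 in M4, 0.991 in M5 and 17 in F1. M3, M4 and F1 were in the GF isotype range, and M1, M2 and M5 were in the SPF aCD3 range. The effect was -6.53 in SPF and -2.11 in GF, a difference of 4.42 ± 1.07 (SE; limma adjusted p = 0.0288). Over the whole marker lists, 2 of 7 stromal genes tested passed above 0 (3 after median-of-ratios scaling). In TPM these were Dcn and Col1a1, both tested only through SPF isotype, so the count is a description. All 17 summed to 22.5 to 59.3 TPM in SPF isotype and 7.52 to 11.2 in SPF aCD3. The GF sums were 12.9 to 27 TPM under isotype and 9.06 to 26.2 under aCD3. For B and plasma cells 1 of 6 passed above 0 (Jchain), and the 13 markers summed to 106 to 287, 17.4 to 24.5, 18.3 to 133 and 19.3 to 114 TPM in the same order. Among these markers, Ms4a1, Pax5 and Tnfrsf17 (B lineage) and Pdgfra, Pdgfrb, Myh11, Cdh5, Kdr, Vwf and Lyve1 (stroma and endothelium) stayed under 1 TPM in every library, and none of those named was at 0 in all. In bulk RNA fewer cells of a type and less RNA per cell cannot be told apart, and the part of such cells in these results was not tested.

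Cd68, a lysosomal glycoprotein best known from macrophages, was the myeloid gene that passed, below 0. Cd68 was at 0, 7.15 and 9.84 TPM (lowest, median and highest library) in SPF isotype, 54.4, 77.1 and 106 in SPF aCD3, 3.29, 9.37 and 18.4 in GF isotype and 8.33, 28.7 and 58 in GF aCD3. The difference was -2.84 ± 0.69 (SE; limma adjusted p = 0.0289). The other 4 of the 5 myeloid genes tested had a fitted difference above 0, and the list median was 0.38. The 17 markers summed to 14.2 to 23.3 TPM in SPF isotype, 65 to 153 in SPF aCD3, 27.3 to 59.2 in GF isotype and 35.3 to 82.1 in GF aCD3. Without Cd68 the other 16 summed to 10.9 to 18.7, 5.05 to 98.5, 13.9 to 43.8 and 17.9 to 34.4 TPM in the same order, with medians of 12.2, 8.01, 31.2 and 23.1, the lowest being that of SPF aCD3. The macrophage markers Adgre1 and Fcgr1, with Itgam and Clec9a, stayed under 1 TPM in every library. Reg3g, an antibacterial lectin of gut epithelium, was the 1 epithelial gene of 13 that passed in TPM, below 0 (2 below after median-of-ratios scaling). It was tested only through SPF aCD3. It was at 1.31, 7.91 and 17.3 TPM in SPF aCD3, and the other 3 groups reached at most 2.92. The difference was -2.29 ± 0.65 (SE; limma adjusted p = 0.048), and the epithelial list summed to 9.42 to 46.7 TPM in SPF aCD3 and 9.13 to 47.5 in GF aCD3. Ncr1, the natural killer receptor NKp46, was the 1 gene of 8 natural killer and innate lymphoid markers that passed in TPM, with a difference of 1.82 ± 0.39 (SE; limma adjusted p = 0.0197). It was tested only through SPF isotype. After median-of-ratios scaling 1 of the 8 passed above 0 and 1 below. In that list 7 of 8 differences were above 0 (69.3% of all genes) and 7 had an unadjusted p under 0.05 (32.1% of all genes). Its median difference was 1.14, with median effects of -1.33 in SPF and -0.20 in GF. The SPF effect passed below 0 for 7 of 8 genes, as it did for 6172 of all 12182 genes tested. These 8 markers summed to 1687 to 2311 TPM in SPF isotype, 1289 to 1717 in SPF aCD3, 2370.4 to 3081 in GF isotype and 1814 to 2887 in GF aCD3. Of 15 pancreatic acinar genes 0 passed in limma (1 at an unadjusted p under 0.05, and 0 with voom), and all 15 had a fitted difference above 0, as did 69.3% of all genes in TPM and 49.1% after median-of-ratios scaling. Their median difference of 1.56 was the highest of any list, with median effects of 0.13 in SPF and 1.56 in GF, and the 20 listed summed to as much as 1022 TPM in a GF aCD3 library. The part of these cells in the results was not tested either.

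**Figure D4:**
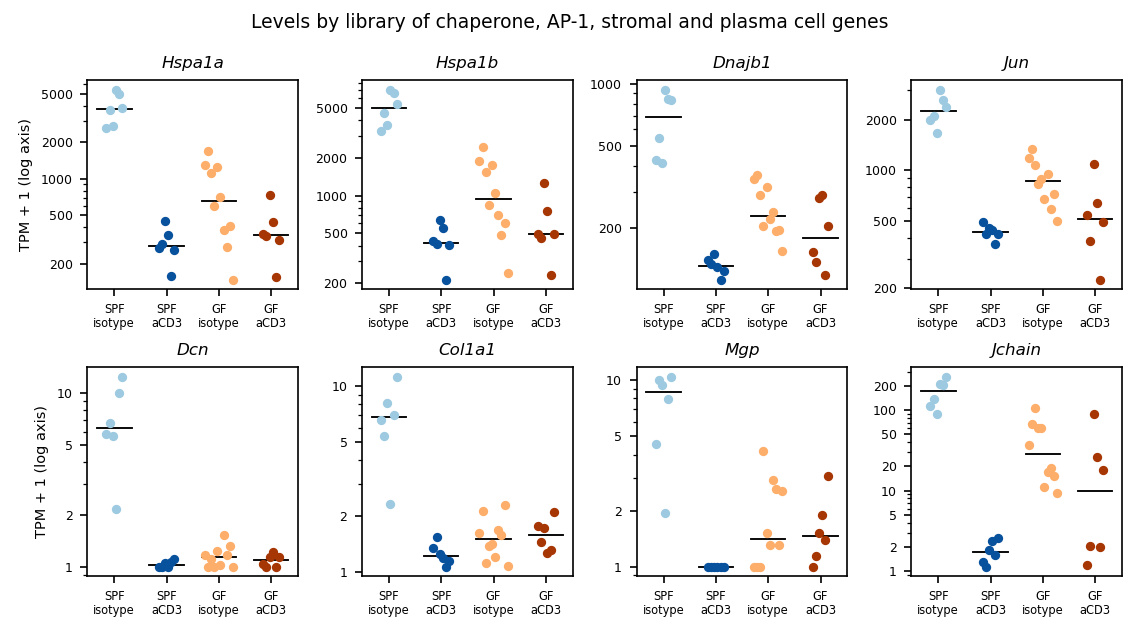
TPM + 1 on a log axis in each library (dots; black lines are group medians) for the chaperone genes Hspa1a, Hspa1b and Dnajb1, the AP-1 gene Jun, the stromal genes Dcn, Col1a1 and Mgp, and Jchain. SPF isotype is the highest group in all 8 panels, and the GF aCD3 libraries overlap GF isotype in each.

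The remaining lists had few members past the threshold in TPM. All of them except ribosome biogenesis had more below 0 after median-of-ratios scaling than in TPM. The share of all genes below 0 also rose, from 1.04 to 6.52%, so nothing is read from that rise. Of 83 cytosolic ribosomal protein genes, 6 passed above 0 and 1 below (2.44 and 1.04% of all genes), and of 78 mitochondrial ones 2 and 1. Under that scaling they had 2 above and 2 below, and 1 above and 6 below. The proteasome list had 2 of 31 below 0 (0 above and 3 below after scaling), Psmc1 and Psmc3, with Psmc1 at -0.54 ± 0.15 (SE; limma adjusted p = 0.0423). The unfolded protein response had 2 of 30 above 0 and 0 below, yet its median was -0.22 and 19 of 30 differences were below 0 (30.7% of all genes). After scaling 2 above and 8 below passed, with a median of -0.47. The genes above 0 were its transcription factor genes Atf4, with 0.63 ± 0.18 (SE; limma adjusted p = 0.0478), and Ddit3, with 0.71 ± 0.17 (SE; limma adjusted p = 0.0289). Cholesterol and fatty acid synthesis had 1 of 29 below 0 in TPM, 0 above and 8 below after scaling (5.16 and 6.52% of all genes), and 8 with voom (15.1% of all genes). The gene in TPM was the early enzyme gene Hmgcs1, with -0.56 ± 0.15 (SE; limma adjusted p = 0.0412) and effects of 0.27 in SPF and -0.29 in GF. Glycolysis had 1 of 24 above 0 and 0 below (2 above and 3 below after scaling), Gapdh, with 0.75 ± 0.20 (SE; limma adjusted p = 0.0396). None passed among 40 oxidative phosphorylation subunits, 30 ribosome biogenesis genes, 16 NF-kB genes or 20 IL-2 and common gamma chain receptor genes. At an unadjusted p under 0.05 these counts were 15, 5, 11 and 8, after median-of-ratios scaling 7, 1, 2 and 3, and with voom 9, 1, 1 and 4. The shares of all genes were 32.1, 11.7 and 15.1%, and nothing is read from counts near them. The medians of the metallothionein, glycolysis, cholesterol, guanylate binding, ribosome biogenesis and cytosolic ribosomal lists lay between 0.013 and 0.19 in TPM and below 0 after median-of-ratios scaling.

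**Figure D5:**
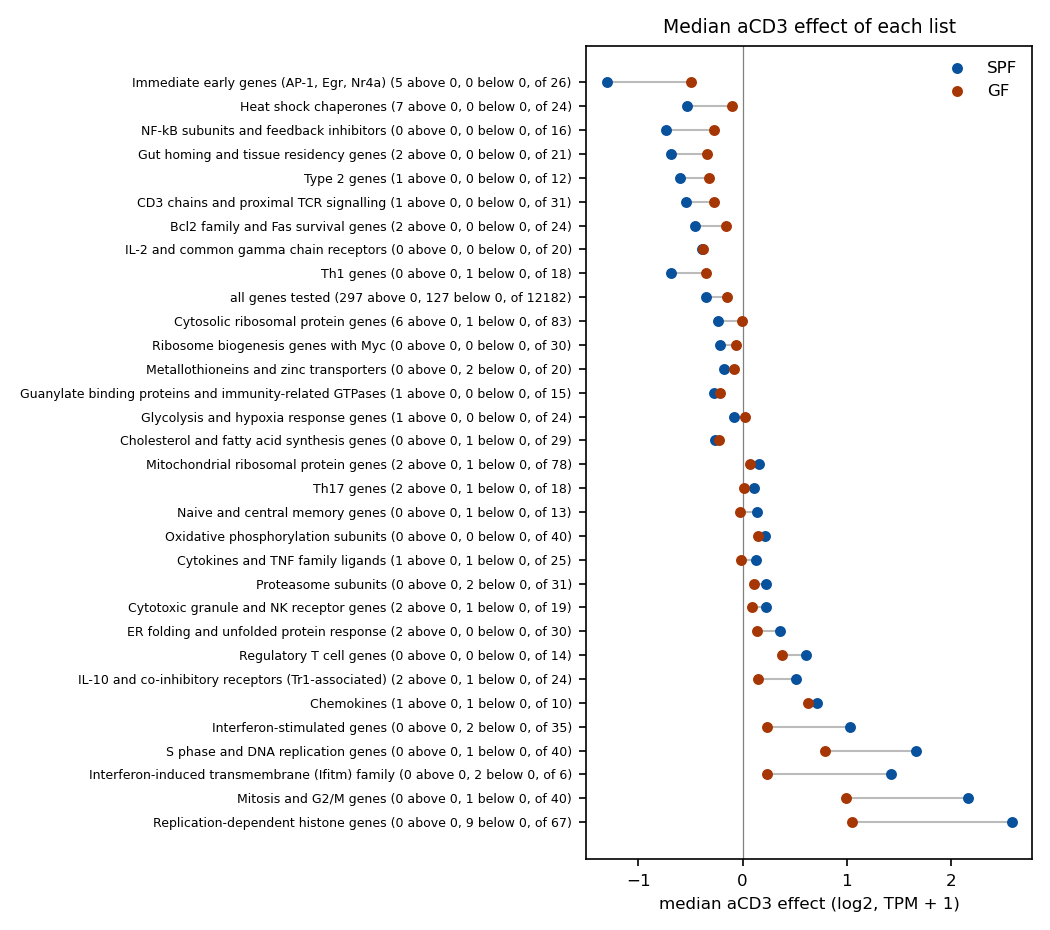
Median fitted aCD3 effect (horizontal axis, log2 of TPM + 1) over the tested members of each gene list in SPF and in GF, leaving out the marker lists of cell types, with the number of members that passed for the difference above and below 0 in brackets. Among the lists shown, the widest gaps between SPF and GF are those of the histone genes (2.58 and 1.05), the Ifitm family and the mitosis genes; all genes tested lie at -0.35 in SPF and -0.15 in GF.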

How the data were processed

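Expression in the 28 libraries of sorted CD4+ T cells came from a single deposited table of 25124 genes. Its values are TPM, a length-scaled share of each library, which per the file headers the authors made with HOMER's analyzeRepeats.pl over RefSeq transcripts of mm10, condensed by gene; the aligner and the use of strand are not given in the sources used here. In 99.24% of rows the length equals the genomic span, so introns count as length. A further 26 TPM columns match no sample of the series and were not used. TPM times length gave whole reads, within 0.1 reads, in 100% of the low values checked. A floor of 3 reads in a 10 kb gene equals 0.123 to 0.323 TPM by library, and covers counting error only.

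A gene was tested if 6 or more libraries reached 1 TPM. The model, fitted by limma 3.58.1 in R 4.3.3 to log2(TPM + 1), had 1 mean for each of the 4 groups, a term for sex, variance moderation with a trend, and Benjamini-Hochberg adjustment over all genes (threshold 0.05). This scale understates changes of low genes. The 95% intervals use the moderated degrees of freedom. The procedure was run on simulated data in which the libraries of a group shared 1 mean per gene. The GF aCD3 libraries here lay far apart, so nothing about these data is read from that run. Genes were named by rule: 7 set genes, the 12 highest and 12 lowest differences that passed with a group mean of at least 5 TPM and 20 reads, their close relatives, and up to 4 members per list that passed. Samhd1, Glipr2, Gnpda1 and Bcl6 were named after their values were seen. The comparison, its members and the 41 gene lists were chosen with earlier results of these data known. Groups and sex letters came from the labels. Alternatives covered the pseudocount, the filter, scaling, voom on the recovered reads, weights, covariates, the GF sample sets and leaving out each library. Motifs were searched in RefSeq promoter windows (GRCm38.p6) with Python 3.11.15; all 13 genes looked up had a window.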

Additional observations from a re-analysis of the deposited data

Results flagged for a closer look

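The difference of the aCD3 effect between GF and SPF is given for 25 genes, the 12 highest and 12 lowest that passed among genes named by size, and Gata3, the 1 of the 7 set genes that passed. It was above 0 for Jchain (4.42), Hspa1a (2.80), Adamdec1 (2.73), Mgp (2.69), Xcl1 (2.68), Hspa1b (2.62), Dcn (2.49), Tnfsf14 (2.40), Col1a1 (2.40), Cyp1b1 (2.39), Bgn (2.38), Serping1 (2.27) and Gata3 (0.92). It was below 0 for Mt1 (-3.84), Ifitm3 (-3.31), Cd68 (-2.84), Ifitm1 (-2.64), Perp (-2.56), Havcr2 (-2.43), Plac8 (-2.42), Il17f (-2.39), Ermn (-2.33), Reg3g (-2.29), Cxcl3 (-2.19) and Hist1h4b (-2.16), all on the log2 scale.

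In 128 sets of values (a gene in a group), 6 libraries lay far from the rest of their group, where chance at 1 in 20 gives 6.4. These were Cyp1b1 in SPF aCD3 M1 at 5.65 TPM, Mt1 in GF isotype F2 at 31.2 TPM, Ifitm1 in SPF isotype M3 at 1.24 TPM, Plac8 in SPF aCD3 F1 at 69.3 TPM, Ermn in GF isotype F2 at 1.06 TPM and Hist1h4b in SPF aCD3 F2 at 1505 TPM.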

How the results depend on the processing

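The count of 424 genes moved by over 1.5 times under many settings. It was 774 with a pseudocount of 0.1, 273 with 5, and 233 with no filter on low values. Median-of-ratios scaling gave 1423, quantile normalization 791 and voom on recovered reads 1839, with 44.2, 54.2 and 48.8% of calls above 0 against 70.0% in TPM; without Rn45s and histone genes the share was 50.7%. Weights per library gave 159 and weights per group 668. Males alone gave 1, the lower-numbered GF set alone 98, the higher-numbered alone 9, and a further bound of 1 on the size of the difference 186. Leaving out 1 library at a time gave 32 to 3187; 4 of these 28 counts stayed within 1.5 times, 20 were lower and 4 higher. A minimum of 5 TPM gave 440, no sex term 422 and robust moderation 440.

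Of 90 genes named by rule, 68 passed. Over 4029 of their values under other settings, 3024 kept direction and side of the threshold, 906 kept the direction but no longer passed, 83 passed newly and 16 changed sign. All 16 belong to Tbx21 and Foxp3, which did not pass. Tbx21 was at -0.16 under median-of-ratios scaling, -0.028 under quantile normalization, -0.056 without Rn45s and histones, -0.16 with voom and -0.091 in the lower-numbered GF set, and ran from -0.026 to 0.20 in the 28 fits without 1 library. Foxp3 was at 0.047 with weights per library, 0.25 in males, 0.077 with a term for the GF set, and 0.040 and 0.13 in the lower- and higher-numbered sets, and ran from -0.28 to 0.27 in the fits without 1 library. The causes were not tested.

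SPF and GF replicates share names such as F1 across antibody groups. With the name as a replicate block the count was 349 (240 above 0 and 109 below). Deviations of 12 same-named pairs correlated between -0.208 and 0.198, and 4 pairs were over 0.1. Only 1 aCD3 library correlated best with its own name. These values cannot show whether libraries of the same name were paired, and the main fit treats them as unpaired. TPM shows shares of a library only, and 3 reads set the limit at low levels.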
